A study of Homo sapiens with 4 samples.

Results

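H3K27ac peaks that lie inside introns, more than 20 kb from the transcription start of the gene they were assigned to, were examined in HCT116, an epithelial cell line from a human colorectal carcinoma. A peak was counted as such a deep intron peak when the first row given for it in the deposited annotation placed it in an intron at over 20 kb from the assigned start. There were 3695 of them among 15789 H3K27ac peaks (23.4%), which was 70.1% of the 5272 intronic peaks. The study comprised 4 chromatin immunoprecipitation sequencing (ChIP-seq) libraries, namely an immunoprecipitate (IP) made with an H3K27ac antibody, an HSF1 IP, and an input library for either IP. All 4 came from HCT116 cells that were fixed in formalin without treatment, so no treated, mutant or knockdown group enters here. Each group held 1 library, and no value below therefore has a replicate error. Intervals are 95% intervals for counting error only, and no p-value is given.

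H3K27ac is acetylation of a lysine in the tail of histone H3, placed by acetyltransferases such as p300 and found at active promoters and enhancers. Promoters carry it at the start of a gene, whereas enhancers carry it at a distance, and many enhancers sit in the introns of long genes. An enhancer in an intron can act on the gene around it or on another gene nearby, and ChIP-seq of the mark alone does not tell which. The gene that surrounds a peak is called its host below, which is an assignment by position and not a measured target.

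Sequences are shown for 2 kinds of element that belong to the hosts. The first kind is the microRNA genes inside hosts, and 114 of 1380 matched hosts (8.26%) held at least 1. The share among other genes, matched for length, is not given, so this count is not read as a trait of hosts. MIR21, a microRNA gene often high in colorectal tumours, lies at the end of the host VMP1, and MIR4295 lies in the host VTI1A. Their mature sequences (RefSeq, GRCh38.p14) are given with the seed, bases 2 to 8, in capitals, and the seeds of the pair differ.
hsa-miR-21-5p: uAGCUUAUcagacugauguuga
hsa-miR-4295: cAGUGCAAuguuuuccuu
The second kind is the promoters of hosts, since a host can carry deep intron peaks with or without a promoter-class peak, a peak whose midpoint lies within 2 kb of the assigned start. The windows of 4 hosts are shown, of which VTI1A and TANC2 had a promoter-class peak and PCDH7 and PRKCA had none. Each window runs from 250 bases before to 50 bases after the RefSeq start in GRCh38.p14, which need not be the start used in the deposited list, and every CG is in capitals.
VTI1A promoter, chr10:112446965-112447264 (+ strand): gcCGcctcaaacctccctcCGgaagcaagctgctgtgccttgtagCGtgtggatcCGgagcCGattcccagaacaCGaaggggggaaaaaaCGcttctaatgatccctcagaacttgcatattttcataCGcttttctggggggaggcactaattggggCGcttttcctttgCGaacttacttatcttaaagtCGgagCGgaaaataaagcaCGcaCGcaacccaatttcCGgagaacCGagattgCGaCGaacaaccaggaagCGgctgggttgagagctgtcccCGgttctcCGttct
TANC2 promoter, chr17:62965985-62966284 (+ strand): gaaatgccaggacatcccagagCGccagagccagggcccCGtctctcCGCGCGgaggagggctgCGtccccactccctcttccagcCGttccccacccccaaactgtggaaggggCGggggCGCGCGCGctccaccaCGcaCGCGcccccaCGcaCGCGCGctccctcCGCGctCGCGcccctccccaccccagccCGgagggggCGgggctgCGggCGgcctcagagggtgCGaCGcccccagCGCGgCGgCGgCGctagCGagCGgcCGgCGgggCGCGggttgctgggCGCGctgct
PCDH7 promoter, chr4:30720119-30720418 (+ strand): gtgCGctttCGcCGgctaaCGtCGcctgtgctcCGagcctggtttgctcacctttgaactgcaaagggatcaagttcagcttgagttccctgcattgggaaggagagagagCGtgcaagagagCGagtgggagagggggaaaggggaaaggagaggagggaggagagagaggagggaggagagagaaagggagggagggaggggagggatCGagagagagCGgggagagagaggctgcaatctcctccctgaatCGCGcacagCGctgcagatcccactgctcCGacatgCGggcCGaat
PRKCA promoter, chr17:66302363-66302662 (+ strand): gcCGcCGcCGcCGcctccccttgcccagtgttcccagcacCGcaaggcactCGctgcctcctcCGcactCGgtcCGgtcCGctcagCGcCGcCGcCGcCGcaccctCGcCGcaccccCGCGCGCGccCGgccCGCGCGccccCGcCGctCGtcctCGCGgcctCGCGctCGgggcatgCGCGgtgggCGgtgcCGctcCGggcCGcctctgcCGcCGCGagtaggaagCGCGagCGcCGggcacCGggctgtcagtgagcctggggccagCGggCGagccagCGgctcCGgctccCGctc
The windows held 21 CG in VTI1A and 42 in TANC2, against 16 in PCDH7 and 52 in PRKCA, so the hosts with and without a promoter-class peak overlapped. Over all windows the median was 28 CG in 237 hosts with a promoter-class peak, 25 in 859 hosts without one and 14 in all 27305 promoters of the table. Among protein-coding genes the medians were 28, 26 and 22. The AP-1 motif TGANTCA, which reads the same on both strands, stood in 5.91% of the windows of hosts with a promoter-class peak, in 4.66% of those without and in 7.76% of all promoters. TATAAA, searched on the strand of the gene, stood in 3.38%, 4.19% and 7.71%.

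The peaks were first set beside all transcription starts in the deposited lists. These starts come from the annotation that gave the classes, and genes without an assigned peak are missing, so this is no independent check. No deep intron peak lay within 2 kb of any of 12662 listed starts, as such peaks are classed as promoter peaks. Of the 3695 peaks, 3582 (96.9%) were over 20 kb from every listed start. The other 113 peaks lay within 20 kb of a start of another transcript or gene, and for 938 the nearest listed start belonged to a gene other than the host. The median distance to the assigned start was 72.1 kb (quartiles 39.6 and 139.4 kb), and 909 peaks (24.6%) were over 100 kb from every listed start. Within the host the peaks were spread widely. The median position was 47.5% of the way along the transcript (quartiles 29.3 and 70.2%), and in steps of 10% of the transcript the number of peaks lay between 114, in the first step, and 517, from 40 to 50%. The first step is the one that the distance threshold cuts most. The 5 peaks nearest above the threshold were assigned to PRKCH, PITPNM2, GUCY2GP, TEAD1 and HMGXB3 at 20010 to 20084 bp, with 7.86-fold, 5.88-fold, 5.38-fold, 7.86-fold and 9.13-fold enrichment. The 5 nearest below it were assigned to CD109, OXR1, GRK5, GNAT3 and AP1S3 at 19914 to 19950 bp, with 5.00-fold, 7.18-fold, 4.70-fold, 6.73-fold and 4.70-fold enrichment.

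The strength of the deep intron peaks resembled that of the list as a whole. Fold enrichment is the ratio of the IP over the local background as given by the authors' peak caller. It ranged from 3.12 to 14.59 in deep intron peaks, with a median of 6.73 (quartiles 5.77 and 7.42), against a median of 6.73 (quartiles 5.76 and 7.35) over all peaks. The deep intron peaks held 117109 tags, or 24.1% of the 485046 tags in all peaks, over 5.43 Mb. A peak held between 15 and 313 tags with a median of 24 in deep introns, against a median of 24 over all peaks. A count of 24 has an exact Poisson interval of 15.4 to 35.7, so single peaks of this size are not resolved from each other. The median width was 1216 bp (interval 1191 to 1238) in deep introns, against 1186 bp (1152 to 1223) in introns up to 20 kb from the start and 1198 bp over all peaks. Tags per kb had medians of 20.5 in deep introns, 20.5 in nearer introns and 20.5 over all peaks. Single deep intron peaks ranged from 16.1 to 40.3 tags per kb. A fold enrichment of 10 or more was reached by 91 deep intron peaks (2.46%), against 2.35 percent of all peaks, which is a share near the background.

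High scores were somewhat more frequent in deep introns than in the rest of the list. The score is 10 times the negative logarithm of the p-value of the peak caller, and the list starts at a score of 50. A score of 100 or more was reached by 714 deep intron peaks (19.3%, interval 18.1 to 20.6), against 16.2% (14.4 to 18.1) of intron peaks up to 20 kb from the start, 15.5% of promoter peaks, 16.3% of intergenic peaks, 16.9% (15.6 to 18.4) of upstream peaks, 16.2% (15.6 to 16.9) of all peaks other than deep intron ones and 17 percent of all peaks. On chromosomes 8, 10, 16 and 17 taken jointly H3K27ac peaks held more tags (a median of 33 in deep introns, against 23 in deep introns elsewhere). On chromosome 16 alone the median in deep introns was 24. Without these chromosomes the shares were 17.2% (15.8 to 18.6) in deep introns and 14.2% (12.3 to 16.3) in nearer introns, and 14.1% (13.4 to 14.8) over all peaks outside deep introns. The intervals of the 2 intron classes overlapped in both settings, as did those of deep introns and upstream peaks over all chromosomes, and those of deep introns and of all remaining peaks did not. The intervals count each peak as independent, although many peaks lay close to another one, and may therefore be too narrow. The false discovery rate (FDR) of the peak caller was between 8.99% and 100% for deep intron peaks and likewise over all H3K27ac peaks. It was thus never 5% or less anywhere in the list. It stood at 100% for 79 deep intron peaks (2.14%), against 1.63% of all peaks. Without chromosomes 8, 10, 16 and 17 these shares were 0.93% and 0.90%. The 79 peaks had scores of at least 225.92, which places the highest FDR values at the highest scores.

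Somewhat more than 50% of deep intron peaks had a close neighbour. Another H3K27ac peak lay within 10 kb of 2078 of them (56.2%, interval 54.6 to 57.8), against 49.7% (47.2 to 52.1) for nearer introns, 49.8% for intergenic peaks, 42.8% for promoter peaks, 58.5% for upstream peaks and 51.7 percent of all peaks. The median gap to the nearest peak was 6318 bp (interval 5644 to 6906), against 10268 bp (8916 to 12305) for nearer introns. The share was lower without chromosomes 8, 10, 16 and 17, at 52.6% (50.7 to 54.5) in deep introns against 46.6% (43.7 to 49.4) in nearer introns. Upstream peaks had the highest share, and deep introns were thus not the class with the most neighbours. Peaks joined over gaps of up to 10 kb formed 2353 groups with a deep intron peak. Of these, 1617 were single peaks, and 66 held 5 or more deep intron peaks and together 533 of them (14.4%).

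**Figure D1:**
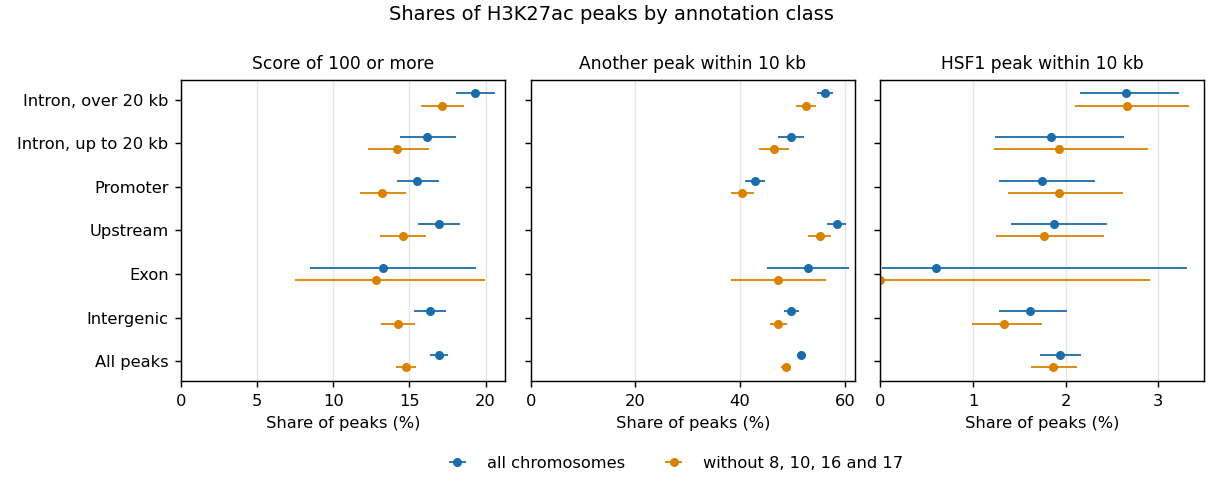
Share of peaks (x axes, percent) with a score of 100 or more, with another H3K27ac peak within 10 kb and with an HSF1 peak within 10 kb, for each annotation class of H3K27ac peaks. Points are shares and bars 95% Clopper-Pearson intervals, over all chromosomes (blue) and without chromosomes 8, 10, 16 and 17 (orange). Deep intron peaks are in the top row, at 19.3%, 56.2% and 2.65% over all chromosomes.

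The 3695 peaks had 1381 hosts, of which 1232 were protein-coding and 131 were genes of long noncoding RNAs. These hosts were 18.7 percent of the 7391 genes with any H3K27ac peak, counted over all rows of the list. They included 3.57 percent of the protein-coding and long noncoding genes in the RefSeq table. A minority of hosts held a large part of the peaks. A single peak was found in 697 hosts and 2 to 4 peaks in 504, whereas 180 hosts with 5 or more held 1663 peaks (45.0%) and 50 hosts with 10 or more held 846 (22.9%). The number of peaks per host increased with the length of the assigned transcript (Spearman correlation 0.41 across 1381 hosts, given as a description because the rule itself requires a length of over 20 kb). Length alone did not order the hosts. PCDH7, with a transcript of 426 kb, held 51 peaks, while FHIT with 1504 kb held 4, and LRP1B with 1900 kb and DLG2 with 2172 kb held 1 each.

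**Figure D2:**
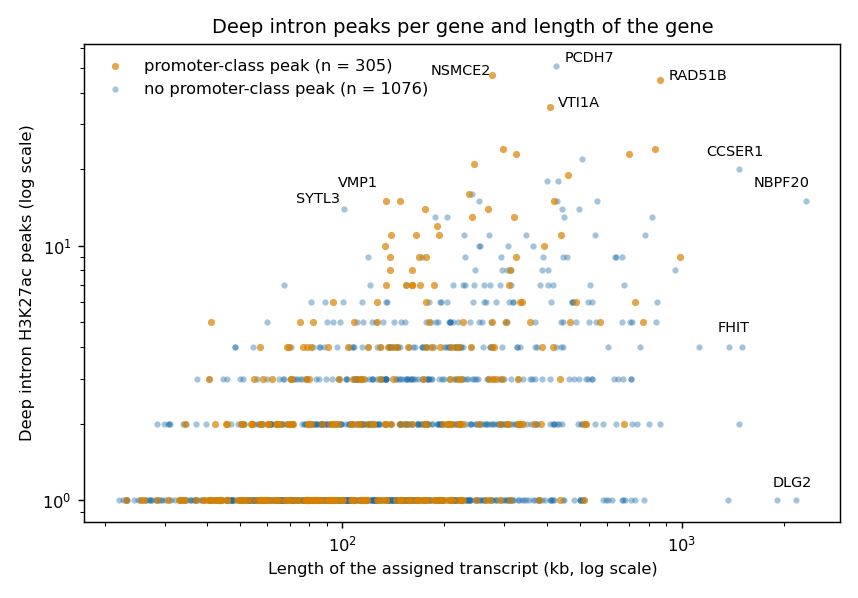
Deep intron H3K27ac peaks per host (y axis, log scale) against the length of the assigned transcript in kb (x axis, log scale), 1 point per host. The 305 hosts with a promoter-class peak are orange and the 1076 without are blue. PCDH7 and NSMCE2 stand above longer genes, and DLG2 holds 1 peak.

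The 15 hosts with the most deep intron peaks held 406 of them. PCDH7, which encodes a protocadherin of the cell surface, led with 51 peaks of 16 to 80 tags (median 29) and 3.85-fold to 11.22-fold enrichment, from 20.1 to 393 kb from the assigned start. It had no promoter-class peak. NSMCE2, which encodes a SUMO ligase that acts in DNA repair, held 47 peaks of 20 to 291 tags (median 52), all of them within 10 kb of another peak, and 42 of them formed 1 group of 195 kb in which peaks covered 69.4% of the bases. RAD51B, which encodes a protein of homologous recombination, held 45 peaks of 17 to 76 tags (median 30). They formed 21 groups, the most among the 15 hosts, and all were over 117 kb from the start they were assigned to. VTI1A, which encodes a SNARE protein of vesicle traffic, held 35 peaks of 18 to 232 tags (median 56). Its largest group had 22 peaks over 97.8 kb, and 9 of the 35 reached 10-fold, more than in any other of the 15 hosts.

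The next hosts were of several functions. SKAP1, an adaptor protein best known from T cells, and ZBTB20, a zinc finger repressor, held 24 peaks each. SKAP1 peaks held a median of 41.5 tags, against 25 in ZBTB20 (SKAP1 is on chromosome 17 and ZBTB20 on 3). PPP3CA, the catalytic subunit of calcineurin, and CDKAL1, a tRNA-modifying enzyme, held 23 each, with medians of 23 and 21 tags. PRKCA, which encodes protein kinase C alpha, held 22 peaks with a median of 37.5 tags. PHLDB2, which anchors microtubules near adhesions, held 21 peaks of 20 to 288 tags (median 50) over 194.8 kb, assigned to 2 transcripts. CCSER1 held 20 peaks over 916 kb, with a median gap of 26.8 kb and no peak above 37 tags. TANC2, a scaffold protein, held 19 peaks, and PALLD, the actin-binding protein palladin, held 18, of which 17 formed 1 group of 83.7 kb. TNIK, a kinase that acts with the Wnt effector TCF7L2, held 18 peaks with a median of 21 tags. MTHFD1L, a mitochondrial folate enzyme, held 16 peaks, all in 1 group of 91.0 kb that also held 8 other H3K27ac peaks. NSMCE2, VTI1A, SKAP1, PRKCA and TANC2 are on chromosomes 8, 10 and 17. The other 10 hosts lie outside them, with median tags between 21 and 50.

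**Figure D3:**
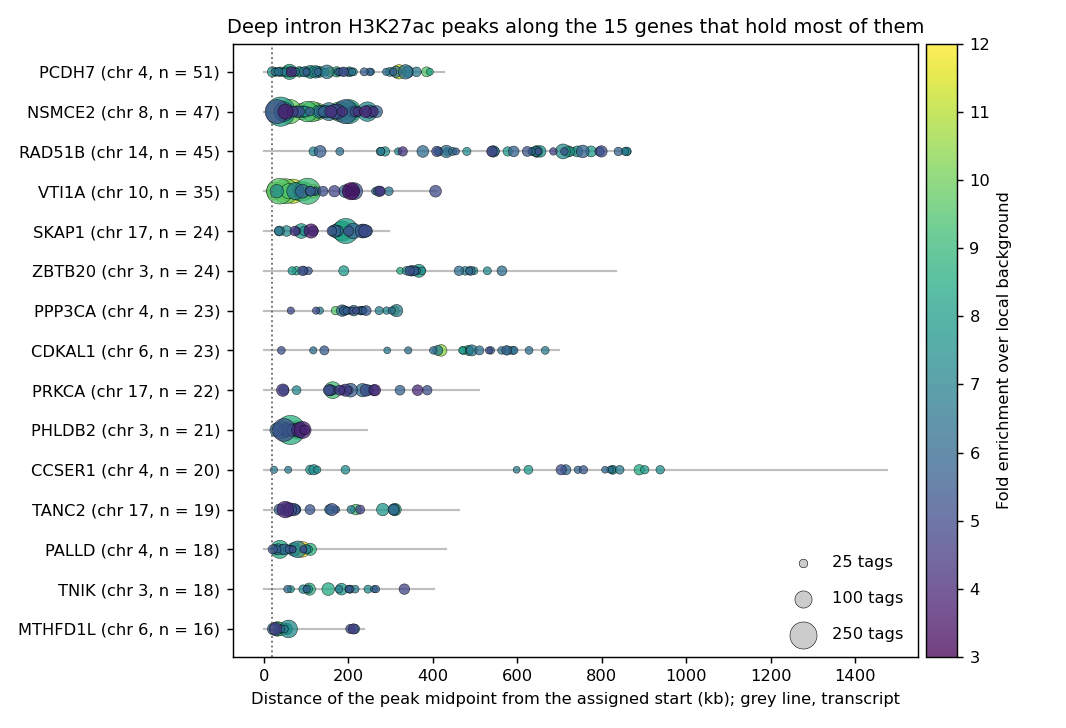
Deep intron H3K27ac peaks along the 15 hosts that hold most of them. The x axis is the distance of the peak midpoint from its assigned start in kb (peaks of 1 host can have different assigned starts), the grey line the longest assigned transcript, the area of a circle the tags in the peak and its colour the fold enrichment over local background, and the dotted line marks 20 kb. NSMCE2 peaks lie close together, whereas CCSER1 peaks are spread over 916 kb.

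The 15 peaks of highest fold enrichment were not those of the leading hosts alone. The highest was in ITCH, which encodes a ubiquitin ligase (14.59-fold, 66 tags, 2518 bp, 29.2 kb from the start, chr20:32979063-32981580), with no other peak within 26.2 kb. CYP20A1, an orphan cytochrome P450 gene, followed (13.84-fold, 39 tags, chr2:204145687-204147250), and its nearest peak was 119 kb away. PALLD (12.64-fold, 83 tags, chr4:169507339-169510399) and EXOC6, a subunit of the exocyst (12.35-fold, 78 tags, chr10:94729276-94731869), came next. VTI1A held 3 of the 15, at 12.12-fold, 11.80-fold and 11.22-fold, all within 157 bp of another peak. The rest were in NSMCE2, NTSR1 (the neurotensin receptor) and CUX1 (a homeobox factor), at 11.78-fold each, in SKAP1 at 11.45-fold, in STAU2 (an RNA-binding protein) at 11.23-fold, and in LINC01599, PCDH7 and MSRB3-AS1 at 11.22-fold each. In all 17 deep intron peaks were tied at 11.22-fold, of which the 4 with the highest scores, the third of VTI1A among them, are named, and another 13 are not. These peaks thus ranged from isolated ones, such as those in CYP20A1, EXOC6 and CUX1 with gaps of 89.9 to 141 kb, to peaks inside dense groups. Positions are those of hg19.

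The 5 widest deep intron peaks were in NSMCE2 (10220 bp, 291 tags, 8.08-fold), SYTL3 (9888 bp, 313 tags, 7.26-fold), PHLDB2 (8669 bp, 288 tags, 8.70-fold), NBPF20 (8276 bp, 218 tags, 3.87-fold) and SKAP1 (8202 bp, 216 tags, 8.04-fold). SYTL3 encodes a synaptotagmin-like protein of vesicle traffic and held 14 peaks in a transcript of 101 kb, all in 1 group of 70.7 kb. NBPF20 belongs to a family of near-identical copies on chromosome 1, where reads can be placed in the wrong copy, and its 15 peaks are uncertain. The peaks farthest from the assigned start were in FHIT, a gene of a common fragile site, at 1431 kb (34 tags, 6.04-fold) and 1395 kb (27 tags, 8.98-fold), followed by 3 in NBPF20 at 1308 to 1311 kb. Distance within the host did not order the median tags. They were 24 at 20 to 50 kb, 24 at 50 to 100 kb, 25 at 100 to 200 kb, 24 at 200 to 500 kb and 24 beyond 500 kb. The share with a fold enrichment of 10 or more was 2.74%, 2.59%, 2.37%, 1.78% and 1.59% over the same distances. It was lower at each step, but the intervals all overlapped (1.92 to 3.77% at 20 to 50 kb, against 0.193 to 5.62% beyond 500 kb), so a trend was not resolved.

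It was then asked how often a host also carried H3K27ac at its own start. A promoter-class peak was assigned to 305 of 1381 hosts (22.1%, interval 19.9 to 24.4), against 18.1% (15.6 to 20.8) of 869 genes with a nearer intron peak and no deep one, and 13.3% (11.9 to 14.9) of 1973 genes with an intergenic peak and no deep one. The background over all genes with a peak was 40.5 percent, which includes the genes that are there only because of a promoter peak. Promoter-class peaks and this background were counted over all rows of a peak, and the hosts and the 869 and 1973 genes over first rows. The share was 32.8% (26.0 to 40.2) in the 180 hosts of 5 or more peaks, 23.0% in hosts of 2 to 4 and 18.7% (15.8 to 21.7) in hosts of 1. Among the 15 leading hosts 10 had a promoter-class peak, and PCDH7, PRKCA, CCSER1, PALLD and TNIK had none. The promoter peaks of leading hosts ranged from 4.89-fold in CDKAL1 to 9.13-fold in TANC2, and in NSMCE2 the deep intron peaks had medians of 6.56-fold and 52 tags, against 5.13-fold and 40 tags in its promoter peak. A peak at a start that 2 genes share can be listed under the other gene. Of the 1381 hosts, 270 (19.6%) had a peak midpoint of any assignment within 2 kb of their start, a count added after the data were seen.

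The host VMP1, which encodes a membrane protein of autophagy, held deep intron peaks that ran close to those assigned to MIR21, a microRNA gene inside VMP1 at its end. It held 15 peaks of 27 to 236 tags (median 65) and 4.44-fold to 10.75-fold enrichment, and 13 of them formed a group of 60.2 kb (chr17:57824499-57884672). The last of the 15 ended 4577 bp before the first of 10 peaks assigned to MIR21, the gene of the miR-21-5p sequence above. Those 10 held 29 to 125 tags at 4.67-fold to 9.83-fold, so the 2 sets of peaks overlapped in strength. The MIR21 peaks also began inside the VMP1 transcript, so the 2 sets are divided by the annotation. The MIR21 start lay 23.0 kb from the midpoint of the last VMP1 peak.

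Hosts were next grouped by function, using 14 lists with 381 entries that were chosen with earlier results of these data known. The counts are to be read beside the 18.7 percent of genes with an H3K27ac peak of any class, and the 3.57 percent of RefSeq genes, that were hosts. Only a gene of over 20 kb can be a host, and neither base was matched for length to any of the 14 lists. A share above 18.7 percent is therefore not read as a result about a pathway. Among 35 regulators of the actin cytoskeleton, which shape the cell cortex and its movement, 29 had an H3K27ac peak of any class and 23 held a deep intron peak (79.3% of the 29), with 137 peaks in all and a median of 6.73-fold. They were led by PALLD at 12.64-fold, MYO10, a myosin of filopodia, at 10.66-fold, TIAM1, an exchange factor for Rac, at 10.44-fold, and SHROOM3, which drives apical constriction, at 10.01-fold. MYO1E held 13 peaks, and TIAM1 and SHROOM3 held 11 each. Long genes are frequent in this list, and the lengths of its members were not compared with those of other genes. Of 28 tight junction and cadherin junction genes 22 had a peak and 9 of these (40.9%) were hosts, with PARD3, a polarity scaffold, at 11.22-fold, CTNND1 (p120-catenin) and MAGI3 at 7.86-fold each and TJP1 (ZO-1) at 7.30-fold. The other 13 had only H3K27ac peaks of other classes, among them CDH1, CLDN4 and OCLN.

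Of 29 adhesion, laminin and hemidesmosome genes 24 had a peak of some class and 7 were hosts (29.2% of the 24, against 18.7 percent of all genes with a peak, not matched for length). The hosts were led by DST, a cytoskeletal linker of hemidesmosomes (14 peaks, 15 to 55 tags, up to 10.66-fold), the integrin genes ITGA6 (10.10-fold) and ITGB5 (8.24-fold), and ITGA2 (7.86-fold). None of the 7 had a promoter-class peak. Of 35 EGFR, MAPK and AP-1 genes 25 had a peak and 3 were hosts (12% of the 25), and all 3 also had a promoter-class peak. EGFR, the receptor, held 9 peaks of 16 to 56 tags and 5.05-fold to 9.54-fold enrichment, at 45.2 to 119 kb from the start. MET, the receptor for hepatocyte growth factor, held 6 of 16 to 92 tags and 7.30-fold to 9.54-fold, and TGFA, an EGFR ligand, held 2 at up to 8.98-fold. In the heat shock list 20 of 30 genes had a peak, and DNAJC1, a co-chaperone of the endoplasmic reticulum, was its 1 host (21 tags, 5.61-fold). How many of the 20 are too short to be a host was not examined.

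**Figure D4:**
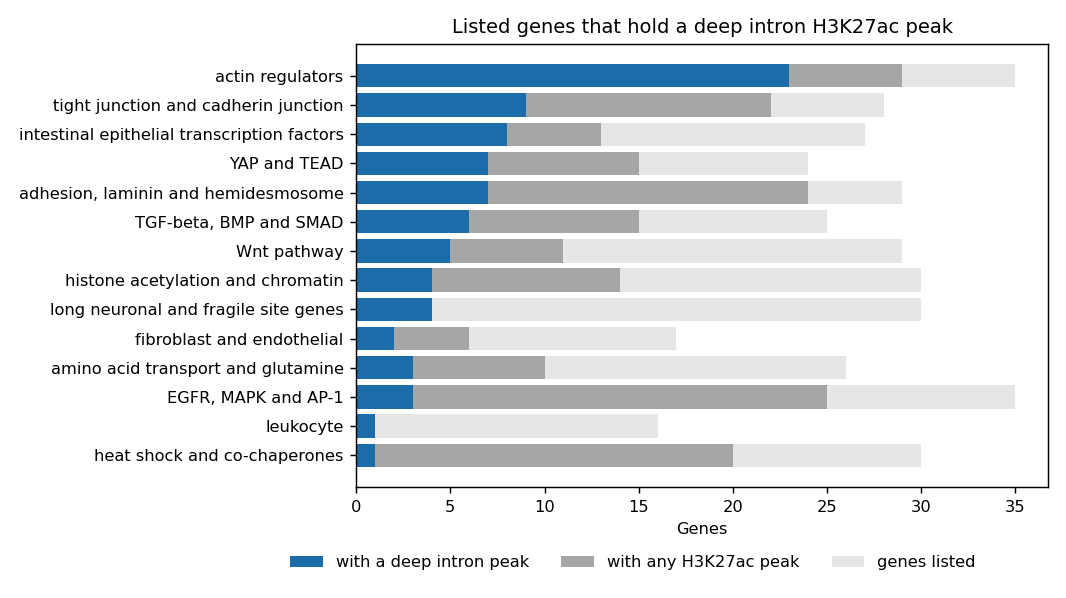
Genes in each of 14 lists (x axis, number of genes) that hold a deep intron H3K27ac peak (blue), that have an H3K27ac peak of any class (dark grey and blue together) and that were listed (whole bar). Lists run from the highest to the lowest share of hosts. The actin list has 23 hosts of 35 genes, and the heat shock list has 1 of 30.

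In the YAP and TEAD list, which covers the Hippo pathway, 15 of 24 genes had a peak of any class and 7 were hosts with 40 peaks (46.7% of the 15, against 18.7 percent of all genes with a peak, not matched for length). PTPN14, a phosphatase that restrains YAP, held 13 peaks of 18 to 34 tags, at up to 9.54-fold, NF2 held 2 at up to 8.98-fold, TEAD1, a DNA-binding partner of YAP, held 11 of 16 to 65 tags at up to 8.42-fold, and WWTR1, which encodes TAZ, held 7 at up to 8.24-fold. In the TGF-beta list 15 of 25 had a peak and 6 were hosts (40% of the 15). SMAD3, a signal transducer, held 4 peaks of 40 to 116 tags at up to 10.49-fold, TGFBR2, a receptor, held 2 at up to 8.92-fold, and BMPR2 and TGFBR3 held 1 each at 7.80-fold and 6.17-fold. In the Wnt list 11 of 29 had a peak and 5 were hosts (45.5% of the 11), and their 11 deep intron peaks had a median of 4.99-fold, the lowest of the 14 lists. ZNRF3, a ubiquitin ligase that removes Wnt receptors, held 4 at up to 8.98-fold. The Wnt coreceptor gene LRP5 (6.13-fold), RNF43, a ubiquitin ligase related to ZNRF3 (5.73-fold), and VANGL1, of planar cell polarity (5.38-fold), held 1 each. TCF7L2, a transcription factor of the pathway, held 4 of 34 to 79 tags at 3.42-fold to 4.88-fold. TCF7L2 is on chromosome 10, where peaks held more tags and deep introns had a median of 6.57-fold.

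Of 27 intestinal epithelial factors 13 had a peak and 8 were hosts (61.5% of the 13, against 18.7 percent of all genes with a peak, not matched for length). Among them were EHF, an epithelial ETS factor (47 tags), at 9.89-fold, RUNX1 (7 peaks) at up to 9.54-fold and NR5A2 at up to 7.86-fold. The factors without an H3K27ac peak of any class included CDX1, CDX2, HNF4A, GATA6, FOXA1 and ASCL2. Of 30 histone acetylation and chromatin genes 14 had a peak and 4 were hosts (28.6% of the 14), with the coactivators NCOA3 at 9.54-fold and NCOA2 at 8.55-fold, the remodeller CHD1 at 7.86-fold and ARID1B at 6.17-fold. Of 26 genes of amino acid transport and glutamine 10 had a peak and 3 were hosts (30% of the 10), namely SLC7A11, the cystine and glutamate exchanger (3 peaks, up to 7.21-fold), ASNS, asparagine synthetase (6.17-fold), and SLC38A1, a glutamine carrier (5.38-fold). SLC1A5 had no peak, and ANXA11 had peaks of other classes only. Of 30 long neuronal and fragile site genes 4 had any peak, and those 4 were hosts, among them FHIT at up to 8.98-fold, DLG2 at 6.17-fold and LRP1B at 6.04-fold. The remaining 26, among them CSMD1, PTPRD and DMD, are long genes as well and had none.

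Markers of the line and of other cell types were looked up in the same list. Of 10 colonic epithelial markers CDH1, KRT8, KRT18, KRT19 and KRT20 had a peak of some class, between 6.24-fold and 9.54-fold, and EPCAM, CDX2, VIL1, GPA33 and LGR5 had none. None of the 10 was a host. A gene under 20 kb cannot be one, but which of the 10 are that short was not examined. Of 12 markers of other cell types PTPRC, of leukocytes, held 1 deep intron peak (25 tags, 6.73-fold), and VWF, of endothelium, held 3 (20 to 26 tags, up to 7.41-fold). DCN, of fibroblasts, had 2 peaks of other classes, at up to 7.30-fold, and the other 9 markers had none. In the longer lists, PTPRC was the only one of 16 leukocyte genes with a peak, and 6 of 17 fibroblast and endothelial genes had a peak of some class, of which VWF and COL5A2 were hosts.

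HSF1, the transcription factor of the heat shock response, was listed with 13127 peaks of its own. An HSF1 peak overlapped 17 deep intron peaks (0.460%, interval 0.268 to 0.736), against 3 of 1577 nearer intron peaks (0.190%, 0.0392 to 0.555), 0.151% of promoter peaks, 0.248% of intergenic peaks and 0.26 percent of all H3K27ac peaks. The intervals of the 2 intron classes overlapped. An HSF1 peak within 10 kb was found for 98 deep intron peaks (2.65%, 2.16 to 3.22), against 1.84% (1.23 to 2.63) for nearer introns and 1.94 percent of all peaks. The 16 HSF1 peaks that met a deep intron peak had scores of 30.03 to 49.36, where the HSF1 list starts at 30, and a median of 4.43-fold, against 4.68-fold over all HSF1 peaks. The pair of highest HSF1 enrichment was in SYTL3, where the HSF1 peak had 27 tags (6.41-fold) and the H3K27ac peak 174 tags (7.32-fold, chr6:159128829-159135772). It was followed by pairs in MLIP (HSF1 6.20-fold), CTBP2, a corepressor (6.04-fold), MAGI3 (5.32-fold), TIAM1 and SPIRE1, an actin nucleator (4.87-fold each), and REDIC1 (4.81-fold). UTRN, which encodes utrophin, had 2 pairs at 4.43-fold, and SKAP1 had 2 deep intron peaks that met the same HSF1 peak (2.92-fold). Of the hosts, 177 (12.8%) also had an HSF1 peak in an intron over 20 kb from the start, which was 17.2% of the 1031 genes with such an HSF1 peak. Hosts were 18.7 percent of all genes with an H3K27ac peak and 3.57 percent of the protein-coding and long noncoding RefSeq genes. Neither base matches the 1031 genes, which need not have an H3K27ac peak, and neither was matched for length. These 177 hosts were longer, with a median transcript of 259.8 kb, against 116.4 kb in the other hosts.

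Deep intron peaks were found on every chromosome from 1 to 22 and on X. Chromosome 4 held 346 of them, or 35.1% of its 987 H3K27ac peaks, and chromosome 19 held 21, or 6.23% of 337. The X chromosome held 3. Median tags per deep intron peak were 38 (interval 35 to 41) on chromosome 17, 32 (30 to 34) on 8 and 30 (27 to 32) on 10, against 21 to 28 on the other autosomes. On chromosome 16 the median was 24 (22 to 27). The other H3K27ac peaks on chromosomes 17, 8 and 10 had medians of 36, 33 and 29 tags, so the chromosome went with the tags in both groups of peaks. Chromosomes 8, 10, 16 and 17 jointly held 885 deep intron peaks (24.0%), with a median width of 1516 bp and 6.17-fold enrichment, against 1142 bp and 6.73-fold for the 2810 on the other chromosomes.

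**Figure D5:**
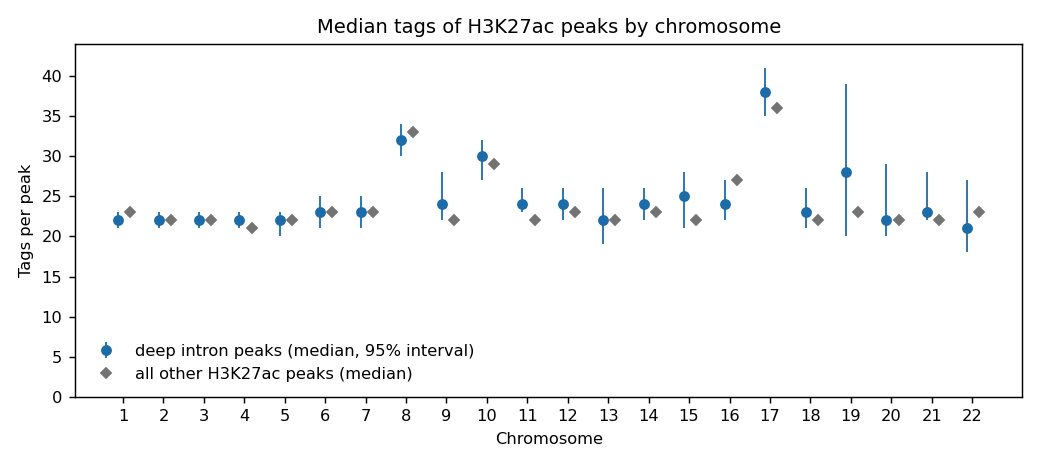
Median tags per peak (y axis) on each autosome (x axis), for deep intron H3K27ac peaks (blue circles, bars are 95% order-statistic intervals) and for all other H3K27ac peaks (grey diamonds). Chromosomes 8, 10 and 17 stand above the others in both, at 32, 30 and 38 tags in deep introns.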

How the data were processed

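Peaks were called by the authors with MACS from each IP over its own input, per library and not on pooled libraries. Bowtie2 2.2.7, FastQC and hg19 are given in the submitters' processing notes, and the depth of the libraries was not stated. The tag counts of each peak were deposited without normalization. The score was deposited as 10 times the negative log10 of the p-value, with list minima of 50 for H3K27ac (p of 1e-05) and 30 for HSF1 (p of 1e-03). Fold enrichment, a ratio of IP to local background, was deposited as the peak caller gave it, and the FDR was deposited as a percent. Annotation classes, starts and distances from peak midpoints were those of the deposited lists.

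The 39350 rows of the H3K27ac list and 24461 of the HSF1 list were reduced to the first row of each peak. Hosts and the genes with a nearer intron or intergenic peak were taken from these first rows. All rows were used for the listed starts, for the 7391 genes with an H3K27ac peak and for the genes with a promoter-class peak. The 7391 can therefore include genes that only a later row names, and these cannot be hosts. Hosts were given current symbols through their transcript accession in a RefSeq table of GRCh38.p14 (3682 of 3695 rows matched), from which no positions of peaks or genes were taken. Overlap required 1 bp. Shares have exact Clopper-Pearson and medians exact order-statistic intervals. No test was made, since every group held 1 library. Named were the 15 hosts with the most peaks, the 15 peaks of highest fold enrichment (ties broken by score, then position), the 5 widest, the 5 farthest and the 5 on either side of the distance threshold, the overlaps of highest HSF1 enrichment and up to 4 hosts per list by fold enrichment. VMP1, SYTL3, MYO1E, SAP30BP, TCF7L2, the noncoding hosts and the examples without a deep intron peak were named after their values were seen. A few genes that the rule names are not reported here. The peaks and the lists were chosen with earlier results of these data known. The steps were tested on simulated data. Motifs in the peaks were not analysed, as they need the hg19 sequence. Computations used Python 3.11.15 (matplotlib 3.10.9, scipy 1.17.1, pandas 2.3.3, numpy 2.4.6).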

Additional observations from a re-analysis of the deposited data

How the results depend on the processing

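With a threshold of 50 kb there were 2379 peaks and 832 hosts. With peaks of a score of 100 or more in all roles there were 714 peaks in 373 hosts, with a median of 7.58-fold and 2147 bp, 8.40% at 10-fold or more, 44.8% with another such peak within 10 kb and 7.77% of hosts with a promoter-class peak. Without chromosomes 8, 10, 16 and 17 the median width was 1142 bp and 52.6% had a neighbour within 10 kb. A fold enrichment of 8 or more was reached by 14.9%, against 15.1% of all peaks, a share near the background. A neighbour lay within 5 kb of 46.4% and within 20 kb of 66.5%, and for these no share over all peaks is given. An HSF1 peak lay within 10 kb of 2.65%, against 1.94 percent of all peaks. Of the hosts, 38.9% had a promoter or upstream peak, and 19.6% had any peak within 2 kb of the start, an alternative chosen after seeing the data. Using the nearest start over all rows moved none of these results beyond its counting interval. Of the 14 lists, the number of hosts changed by over 1.5 times in 13 with a score of 100 or more and in 1, heat shock, with any row of the peak (2 hosts). No paired analysis was possible because each group held 1 library. The inputs entered only through the peak caller, and peaks under a score of 50 are not in the list, so an absent peak does not show absent acetylation.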

Other observations

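Among the 131 long noncoding hosts, CASC21, on chromosome 8, held 15 deep intron peaks (median 54 tags, up to 10.63-fold), and SLC38A4-AS1 and MSRB3-AS1, on chromosome 12, held 14 each (medians 38 and 38.5 tags, up to 9.54-fold and 11.22-fold). MSRB3, the neighbouring gene on the other strand, was host to another 13 (median 30 tags, up to 10.10-fold). The MSRB3 peaks spanned chr12:65694958-65852958 and the MSRB3-AS1 peaks chr12:65866116-66009487, so these spans did not overlap. Relative to transcript length, NSMCE2 had the densest peaks among hosts of 5 or more (17.1 per 100 kb), followed by SYTL3 (13.8) and SAP30BP (12.2).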
